A study of Mus musculus with 6 samples.

Results

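The mitochondrial ribosomal protein genes are the nuclear genes whose symbols begin with Mrpl or Mrps, and they encode the proteins of the large and the small subunit of the ribosome inside mitochondria. Members were selected by name, under a rule set with earlier results of these data known. They are the protein-coding rows of the count table whose symbol in the GENCODE M21 annotation is Mrpl or Mrps followed by a digit. The rule found 78 genes among the 55335 rows, 51 for the large subunit and 27 for the small subunit. The libraries were total RNA from bone marrow-derived macrophages (BMDMs) of C57BL/6 mice, obtained by growing marrow of the leg bones for 6 days in medium conditioned by L929 cells, a fibroblast line that secretes the growth factor for macrophages. All 6 libraries shared the strain, carried no genetic change in the labels and were harvested 1 h after treatment. The control group (3 libraries) received phosphate-buffered saline (PBS) and the other group (3 libraries) received lipopolysaccharide (LPS), the bacterial cell wall component that activates Toll-like receptor signalling. The question for the members was whether their RNA level differed between LPS and control at that time.

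Mitochondria keep a small genome that encodes core subunits of the respiratory chain, and these proteins are made on a dedicated ribosome. Its RNA comes from the mitochondrial genome, but each of its proteins is encoded in the nucleus, made in the cytosol and imported. Many of the proteins descend from bacterial ribosomal proteins, and the others are specific to mitochondria and coat the shortened ribosomal RNA or line the exit of the peptide tunnel. In macrophages, activation by LPS is known to go with a shift from respiration towards glycolysis.

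The promoter windows of the 4 members with the largest changes are shown. These members were picked by their measured values: Mrpl52 and Mrpl39 were higher with LPS, and Mrpl49 and Mrpl44 were lower. The sequences are from RefSeq on GRCm38.p6, 250 bases before to 50 bases after the start, written 5′ to 3′ on the strand of the gene. They lie at chr14:54426659-54426958 (plus strand), chr16:84735195-84735494 (minus), chr19:6057706-6058005 (minus) and chr1:79775768-79776067 (plus), in this order. Capitals mark matches on either strand to TGCGCA (core of the motif of NRF1), CCGGAAG (ETS factors such as GABP), AAGATGG (YY1), CACGTG (E-box of MYC and MAX), GGGCGG (SP1), CCAAT (NF-Y), TGANTCA (AP-1) or the kappaB consensus.
Mrpl52: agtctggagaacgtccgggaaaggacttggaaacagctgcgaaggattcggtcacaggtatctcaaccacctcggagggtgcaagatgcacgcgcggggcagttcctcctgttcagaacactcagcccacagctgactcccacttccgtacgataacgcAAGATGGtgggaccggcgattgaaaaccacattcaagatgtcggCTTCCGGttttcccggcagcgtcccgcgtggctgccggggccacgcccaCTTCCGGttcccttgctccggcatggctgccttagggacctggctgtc
Mrpl39: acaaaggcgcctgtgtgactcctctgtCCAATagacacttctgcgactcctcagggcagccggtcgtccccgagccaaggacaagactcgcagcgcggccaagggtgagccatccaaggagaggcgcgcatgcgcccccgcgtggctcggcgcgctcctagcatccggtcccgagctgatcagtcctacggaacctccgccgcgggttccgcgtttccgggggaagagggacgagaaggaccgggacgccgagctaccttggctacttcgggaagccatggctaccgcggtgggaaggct
Mrpl49: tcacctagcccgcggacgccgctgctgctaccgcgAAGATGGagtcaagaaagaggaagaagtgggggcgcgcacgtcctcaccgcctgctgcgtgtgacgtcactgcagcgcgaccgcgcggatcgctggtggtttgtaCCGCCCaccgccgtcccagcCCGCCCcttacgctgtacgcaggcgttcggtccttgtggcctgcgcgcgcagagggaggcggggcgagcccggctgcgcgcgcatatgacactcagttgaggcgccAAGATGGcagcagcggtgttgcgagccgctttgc
Mrpl44: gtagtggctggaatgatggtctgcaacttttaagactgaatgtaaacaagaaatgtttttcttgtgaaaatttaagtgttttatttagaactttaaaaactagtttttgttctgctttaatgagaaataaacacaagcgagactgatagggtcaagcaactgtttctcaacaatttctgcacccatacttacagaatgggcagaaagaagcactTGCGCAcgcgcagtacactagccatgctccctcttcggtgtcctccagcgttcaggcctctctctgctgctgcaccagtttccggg
The window of Mrpl52 held 3 matches, to the ETS motif and the YY1 motif. The window of Mrpl39 held 1 match, to CCAAT. The window of Mrpl49 held 4 matches, to the YY1 and SP1 motifs, and that of Mrpl44 held 1, to the NRF1 core. No match to the kappaB or AP-1 motif was found in these 4 windows. The window of Mrpl39 lies inside the span of that gene in GENCODE M21, which reaches 84735742 on the minus strand. Bases before that annotated 5′ end were thus not part of it.

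Most members were lower after 1 h of LPS, by small amounts. Of the 77 members that passed the filter on low counts, 51 fell and 3 rose at an adjusted p under 0.05 (edgeR's quasi-likelihood test, Benjamini-Hochberg adjustment over 15687 genes), and 23 did not pass the test. Of all tested genes, 34.9% fell and 32.9% rose, while of the tested members 66.2% fell and 3.90% rose. Protein-coding genes in the range of control levels that the members spanned (5.59 to 45.0 CPM, 5371 genes) fell in 47.8% and rose in 25.0% of cases, so part of the distance to all genes was shared with genes of similar level. The median log2 fold change of the members was -0.27, with a middle 50% from -0.47 to -0.09, beside a median of -0.01 over all tested genes and of -0.13 over the protein-coding genes of similar level. Of the 77 members, 66 had a value below 0 and 60 had a size under 0.5 on the log2 scale. Between same-numbered libraries, 59 members were lower with LPS in each of the 3 batches and 6 were higher in each, a count not made over all tested genes. The median of the members within batches 1, 2 and 3 was -0.30, -0.27 and -0.30.

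**Figure D1:**
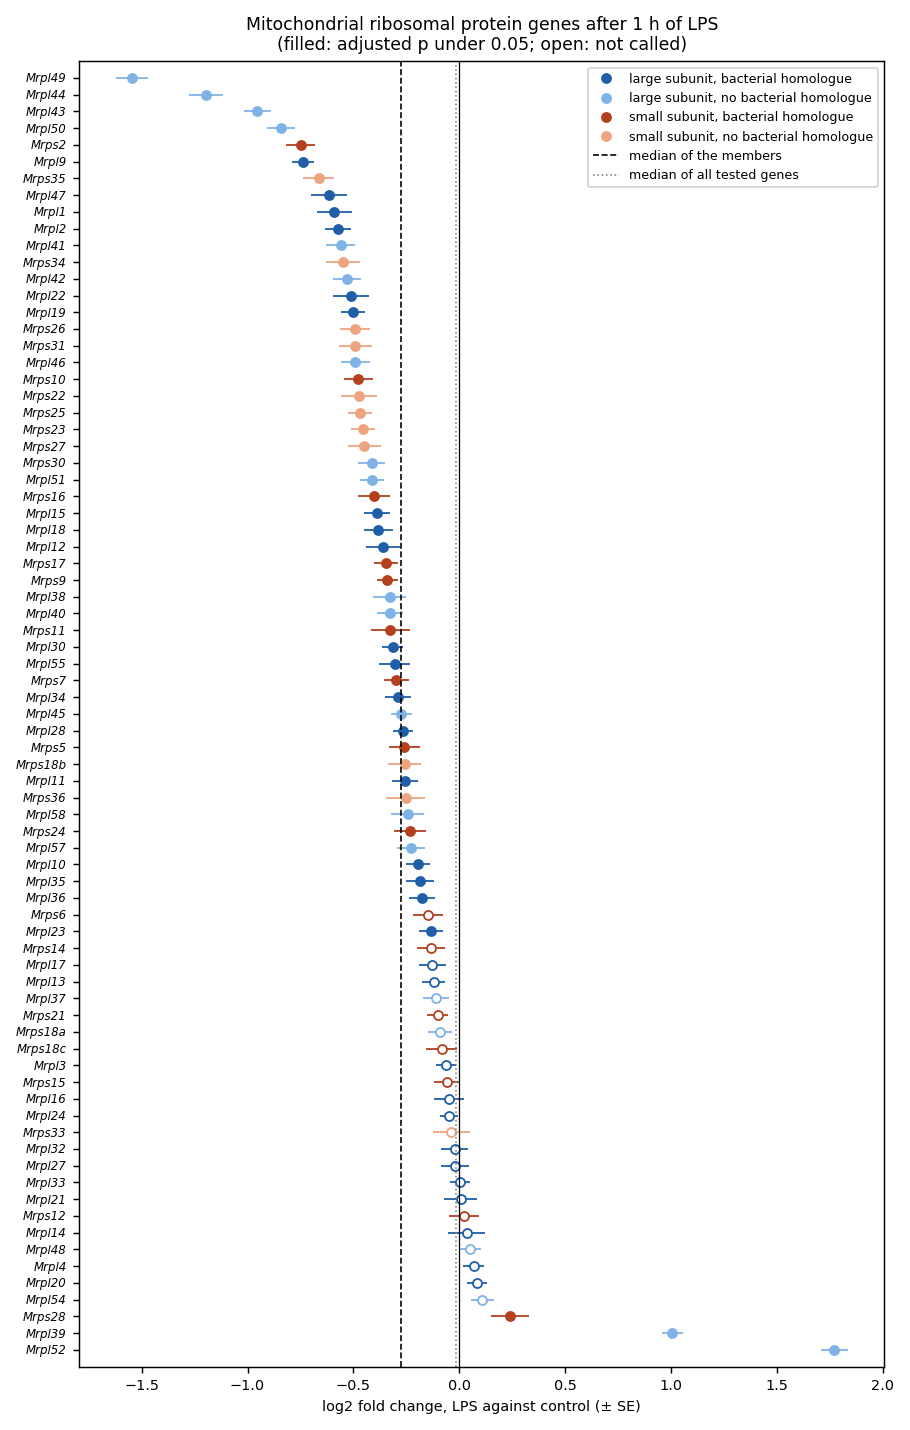
Log2 fold change (LPS against control, ± SE from the fit over 3 libraries per group) of the 77 tested members, ordered from Mrpl49 at the top (-1.55) to Mrpl52 at the bottom (1.77). Colours give subunit and whether the protein was listed with a bacterial homologue, and filled points had an adjusted p under 0.05. The dashed and dotted lines mark the medians of the members (-0.27) and of all tested genes (-0.01).

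The members were measured at moderate depth. Libraries held 37787611 to 41516330 counts, and tested members had between 180 and 2128 counts per library. Levels between libraries are given as normalized CPM, that is counts relative to the library total and corrected by edgeR's TMM factor. These factors were near 1.15 in control and between 0.864 and 0.872 in LPS libraries. The coefficient of variation of a member between libraries of a group had a median of 4.30% in control and 4.74% in LPS. For 57 of the 77 members the CPM of the 2 groups did not overlap, 49 that fell, 3 that rose and 5 that did not pass the test. The same count was not made over all tested genes, so it does not set the members apart from them. The labels do not say whether the libraries of a group came from separate mice or cultures, so p-values measure the spread between these samples, which may be technical.

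As a whole, the members took a smaller share of the counts with LPS. Their share of all counts was 0.168%, 0.166% and 0.165% in control replicates 1, 2 and 3, and 0.107%, 0.108% and 0.106% in LPS replicates 1, 2 and 3. After TMM correction the distance was smaller. Their summed normalized level was 1463, 1440 and 1430 CPM in control replicates 1, 2 and 3, and 1232, 1245 and 1213 CPM in LPS replicates 1, 2 and 3. All 3 LPS libraries lay below all 3 control libraries. A ratio that does not depend on scaling gave the same order. Summed member counts were 5.34%, 5.20% and 5.30% of the summed counts of cytosolic ribosomal protein genes in control, and 3.93%, 3.83% and 3.89% with LPS. Of the 84 tested cytosolic ribosomal protein genes, 75 rose (median log2 fold change 0.21), so this ratio holds the changes of both lists. Against the summed counts of nuclear-encoded respiratory chain genes, the members stood at 29.3%, 28.4% and 29.3% in control and at 23.6%, 23.2% and 23.5% with LPS. In bulk RNA, fewer cells of a type and less RNA per cell cannot be told apart. No p is given for these sums, because exact permutation of 3 against 3 libraries reaches 0.1 at the lowest.

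The scaling sets where 0 lies, so directions are relative to it. Genes that rose past both criteria (an adjusted p under 0.05 together with a log2 fold change beyond 1 in either direction) took 4.28% to 4.49% of the counts in control and 19.3% to 19.4% in LPS libraries. With library size alone in place of TMM, the median of all tested genes moved to -0.42 and that of the members to -0.68, and with upper quartile scaling they moved to -0.16 and -0.42. Another scaling shifts every gene alike, so it leaves the distance between these medians (0.26 on the log2 scale) in place by construction. Over the 15 alternative fits and the reported one, 45 of the 51 members fell with an adjusted p under 0.05 each time, and 2 members, Mrpl52 and Mrpl39, rose each time.

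**Figure D2:**
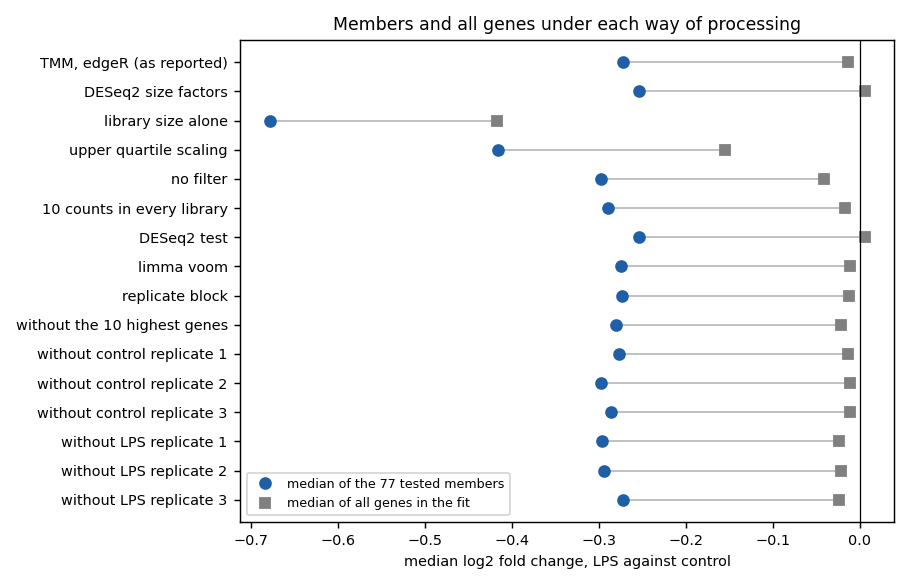
Median log2 fold change (LPS against control) of the 77 tested members (circles) and of all genes in the fit (squares) for the reported fit and for each alternative. Both medians moved together, from -0.27 and -0.01 in the reported fit to -0.68 and -0.42 with library size alone.

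Only 4 tested members passed both criteria, beside 20.9% of all tested genes and 14.6% of the protein-coding genes of similar level. Mrpl52 and Mrpl39 were the members that rose past them, and Mrpl49 and Mrpl44 those that fell. All 4 encode proteins of the large subunit that have no bacterial counterpart, and the 20 tested genes of that class held both the highest and the lowest value of all members. The values nearest to the limit on either side were 1.01 for Mrpl39, just inside, and -0.95 for Mrpl43, just outside.

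Mrpl52 (ENSMUSG00000010406.12, chr14:54426909-54429756 on GRCm38, plus strand) had the highest fold change. Its level was 8.59, 8.68 and 8.86 CPM in control replicates 1 to 3 and 28.6, 32.1 and 28.6 CPM in LPS replicates 1 to 3. The LPS libraries all lay far above the control libraries, and the groups did not overlap. The fold was 3.41 (log2 fold change 1.77, SE 0.06, adjusted p = 2.63e-14). In raw counts the difference was visible without any scaling, with 409, 392 and 409 counts in control and 961, 1047 and 972 with LPS.

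Mrpl39 (ENSMUSG00000022889.7, chr16:84717576-84735742, minus strand) encodes a protein related to threonyl-tRNA synthetases that sits in the large subunit without that enzyme's function. It stood at 20.1, 19.6 and 19.3 CPM in control and at 41.0, 37.2 and 40.4 CPM with LPS. The groups did not overlap, and the level was 2.01-fold higher with LPS (log2 fold change 1.01, SE 0.05, adjusted p = 4.06e-12). The value lay at the limit of the fold criterion. It was 0.99 without control replicate 3, 0.98 without LPS replicate 1 and 0.99 without LPS replicate 3, and 0.60 with library size alone, still passing the test in each case.

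Mrps28, the counterpart of bacterial ribosomal protein S1 in the small subunit, was the third member that rose, and by far less. It stood at 6.01, 5.33 and 5.42 CPM in control and at 6.76, 6.68 and 6.38 CPM with LPS. The groups did not overlap, but the lowest LPS library and the highest control library were close. The log2 fold change was 0.24 (SE 0.09, adjusted p = 0.0249). It did not pass the test with upper quartile scaling, with no filter or with DESeq2, nor without control replicate 2 or 3 or LPS replicate 1 or 2, and it was -0.16 with library size alone.

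Mrpl49 (ENSMUSG00000007338.10, chr19:6053622-6057785, minus strand) fell the most. It stood at 19.3, 19.4 and 17.4 CPM in control and at 6.76, 6.43 and 6.02 CPM with LPS. Every LPS library was below every control library, and the level fell 2.92-fold (log2 fold change -1.55, SE 0.08, adjusted p = 2.78e-12). Mrpl44 (ENSMUSG00000026248.9, chr1:79776018-79781445, plus strand), which encodes a protein with a fold like that of ribonuclease III, stood at 19.8, 19.9 and 18.9 CPM in control and at 9.71, 8.46 and 7.40 CPM with LPS. It was 2.29-fold lower with LPS (log2 fold change -1.20, SE 0.08, adjusted p = 2.67e-10), without overlap between the groups. Exons of Mrpl49 overlap those of Syvn1 (log2 fold change 0.29) over 4.85% of their length, and exons of Mrpl44 overlap those of Wdfy1 (-0.25) over 7.66%, both on opposite strands.

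Next in order were Mrpl43 and Mrpl50, again large subunit proteins specific to mitochondria. Mrpl43 stood at 24.0, 26.9 and 23.3 CPM in control and at 13.0, 12.8 and 12.5 CPM with LPS (log2 fold change -0.95, SE 0.06, adjusted p = 2.91e-10). Part of its exons, 33.4%, overlap those of Twnk, the mitochondrial DNA helicase, which lies on the opposite strand and fell by 1.82 on the log2 scale. The strand setting of the counting is not given in the sources used here, so the share of reads that the genes have in common was not tested. Mrpl50 stood at 17.8, 16.3 and 17.5 CPM in control and at 9.59, 9.90 and 9.28 CPM with LPS (log2 fold change -0.84, SE 0.07, adjusted p = 3.33e-09), and none of its exons overlap another gene.

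The other 6 of the 10 lowest members were more often proteins with a bacterial counterpart. Mrps2, the counterpart of bacterial S2, went from 17.7 ± 0.044 to 10.5 ± 0.820 CPM (SD, n = 3 in each group, log2 fold change -0.75). Mrpl9, the counterpart of L9, went from 31.6 ± 0.621 to 18.9 ± 0.740 CPM (log2 fold change -0.74). Both fell, as did the small subunit protein Mrps35 (-0.66), Mrpl47 (-0.62), Mrpl1 of the L1 stalk (-0.59) and Mrpl2, which lies at the peptidyl transferase centre (-0.57). The LPS libraries of each of these 6 members lay below all control libraries.

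At the upper end, the 7 members next below the 3 that rose had small positive values that did not pass the test. They were Mrpl54 (0.11), Mrpl20 (0.08), an early assembly protein of the large subunit, Mrpl4 (0.07), Mrpl48 (0.05), Mrpl14 (0.04), Mrps12 (0.02), which lies at the decoding centre, and Mrpl21 (0.01), and all of these signs turned negative with library size alone or upper quartile scaling. Mrpl20 stood at 26.6, 25.4 and 26.2 CPM in control and at 27.4, 27.1 and 28.4 CPM with LPS, so its LPS libraries lay just above the control libraries. Mrpl24, the member with the most reads in control, stood at 44.6, 44.3 and 46.1 CPM in control and at 44.3, 45.1 and 41.3 CPM with LPS, and its groups overlapped.

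**Figure D3:**
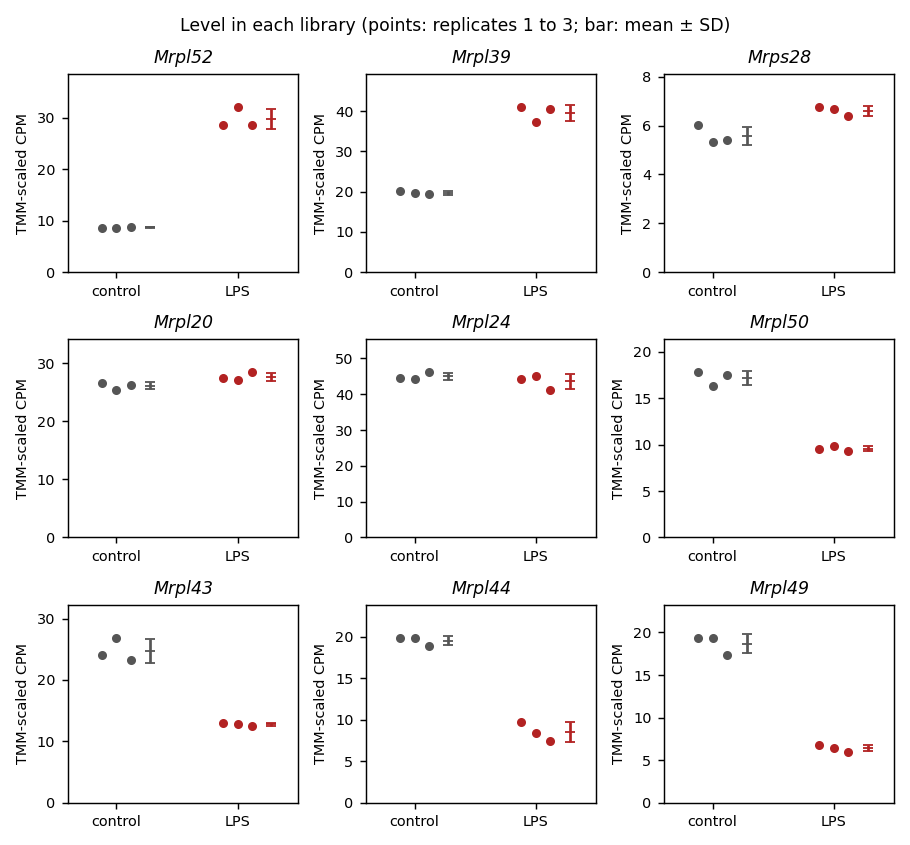
TMM-scaled CPM of 9 members in each control and LPS library (points, replicates 1 to 3 from left to right) with the mean ± SD of the group beside them, each panel starting at 0. Mrpl52 and Mrpl39 were higher in all LPS libraries, Mrpl49, Mrpl44, Mrpl43 and Mrpl50 were lower in all of them, and the groups of Mrpl24 overlapped.

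By structural class, members listed without a bacterial homologue had lower medians than those listed with one. Among the 46 members with a homologue, 1 rose, 27 fell and 18 did not pass the test, with a median of -0.21. Among the 31 tested members named as specific to mitochondria, 2 rose, 24 fell and 5 did not pass, with a median of -0.41. This order held in both subunits: in the large subunit the medians were -0.19 (30 members, 18 of which fell) and -0.33 (20 members, 14 of which fell), and in the small subunit they were -0.24 (16 members, 9 of which fell) and -0.47 (11 members, 10 of which fell). No test was made between these classes, whose members are not replicates. The classes follow a fixed list that puts Mrps18a and Mrps18b, paralogues of bacterial S18, among those without a homologue. Medians with these genes moved to the other class were not computed.

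Examples show what each class held. In the small subunit, mitochondria-specific members that fell included Mrps34 (-0.55), Mrps26 (-0.49), Mrps31 (-0.49), Mrps22 (-0.47) and Mrps27 (-0.45), a protein with pentatricopeptide repeats, while Mrps33 (-0.04) did not pass the test. In the large subunit, those that fell included Mrpl41 (-0.56), Mrpl42 (-0.53), Mrpl46 (-0.49), Mrpl45 (-0.27), which faces the inner membrane at the tunnel exit, and Mrpl58 (-0.24), which acts as a peptidyl-tRNA hydrolase on stalled ribosomes. Of the L10 and L12 stalk, Mrpl10 (-0.20), Mrpl11 (-0.26) and Mrpl12 (-0.36) fell. Mrps36 fell as well (-0.25), although its groups overlapped, and its product is known as a component of the alpha-ketoglutarate dehydrogenase complex despite its name. Of the paralogues of bacterial S18, Mrps18b fell (-0.26), while Mrps18a (-0.09) and Mrps18c (-0.08) did not pass the test, and their difference was not tested. Mrps18a and Mrps18b were nevertheless listed in the classes without a bacterial homologue, and Mrps18c in the class with one. By subunit alone, the medians were -0.26 for the large subunit (2 rose and 32 fell of 50) and -0.33 for the small subunit (1 rose and 19 fell of 27).

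Levels were compared between members only per length, as TPM (counts divided by the length of the union of exons, scaled to the same sum in each library). In control libraries the median was 20.8 TPM. Mrps21 (128 TPM), Mrpl34 (87.0 TPM) and Mrpl28 (81.0 TPM) had the highest levels, and Mrps35 (5.06 TPM), Mrps10 (5.54 TPM) and Mrpl47 (6.11 TPM) the lowest, a range of 25.2-fold among proteins of which the ribosome holds mostly single copies. This order holds for the union of exons, which for Mrps10 is 8079 bases against 4090 in its longest transcript. With longest-transcript lengths the highest and lowest members can be others, and that order is not given. Across the 77 members, the log2 fold change had a Spearman rho of 0.107 with the control TPM, of 0.0918 with gene length and of -0.144 with exon length, given as descriptions over genes that share all libraries.

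Some members could not be measured apart from other genes. Mrpl53 was the member that failed the filter, with 0 counts in all 6 libraries. The floor of 3 counts stood at 0.0630 to 0.0919 CPM per library and covers counting error only. It sets no upper limit for reads in stretches shared with another gene. Of the exon bases of Mrpl53, 88.0% overlap Gm42688 on the same strand, a row with 99, 138 and 116 counts in control and 22, 12 and 18 with LPS. How reads in that stretch were assigned was not tested. Exons of 33 members overlap another gene, for 8 of them on the same strand. Single genes that overlap over 25% of the exon bases of a member were found, besides Mrpl53, for Mrps25 (69.8%, with Nr2c2), Mrps34 (63.4% with Mapk8ip3 and 37.0% with Nme3 on the same strand), Mrpl19 (36.0%, with Gcfc2), Mrpl43 (33.4%), Mrps18b (30.5%, with Gm16279) and Mrpl24 (26.3%, with Rrnad1). Of the 32 tested among these, 22 fell and none rose (median -0.31), and of the 45 members without such overlap 29 fell and 3 rose (median -0.27). Falls thus made up 64.4% of the members with no overlap and 68.8% of those with one. Of 5 pseudogene rows of the family, Mrpl48-ps alone passed the filter, with 33, 42 and 44 counts in control and 32, 34 and 36 with LPS (log2 fold change 0.25, adjusted p = 0.313).

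The other proteins of the same ribosome carry names outside the Mrpl and Mrps series, and of 5 such genes 3 fell and none rose. Gadd45gip1, a protein near the tunnel exit, went from 15.1 to 9.50 CPM (log2 fold change -0.67, adjusted p = 6.78e-08). Ptcd3, which lies at the messenger RNA entry of the small subunit, went from 25.0 to 17.7 CPM (-0.50), and Aurkaip1 went from 44.8 to 38.8 CPM (-0.21). Chchd1 (-0.11) and Dap3 (0.09), a GTP-binding protein of the small subunit, did not pass the test, and Dap3 was -0.31 with library size alone and -0.05 under the upper quartile.

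Genes that assemble the mitochondrial ribosome or act as its translation factors had medians below that of the members, while cytosolic ribosomal protein genes had a positive median. Of 24 genes for assembly and ribosomal RNA modification, 17 fell and 2 rose (median -0.42). Past both criteria 7 of them fell, beside 2 of the 77 members and 1624 of all 15687 tested genes. By the test alone, 34.9% of all tested genes fell and 32.9% rose. None of the related lists was set against genes of similar level. Mettl17, a factor for the small subunit, was the lowest (-1.85), and Noa1, a GTPase of small subunit assembly, the highest (0.92). Of 15 translation factors, 12 fell and none rose (median -0.54), from Mtif3, an initiation factor (-2.16), to Lrpprc, which stabilizes mitochondrial messenger RNA (0.00, not called).

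Of 17 mitochondrial aminoacyl-tRNA synthetases, 9 fell and 1 rose (median -0.21), the lowest being Pars2 (-2.26) and the highest Fars2 (0.17). Of 15 genes of mitochondrial transcription and DNA maintenance, 12 fell and 2 rose (median -0.66), the lowest being Twnk (-1.82) and the highest Supv3l1, a helicase of RNA turnover (0.53). Of 84 tested cytosolic ribosomal protein genes, 75 rose and 1 fell (median 0.21, or -0.20 with library size alone), and their middle 50% spanned 0.07 on the log2 scale against 0.38 for the members. Rpl36al (-0.39) and Rpl24 (1.10) were at the ends of that list. Of 80 tested nuclear-encoded respiratory chain genes, 22 rose and 7 fell (median 0.02, or -0.38 with library size alone and -0.12 under the upper quartile), from Atp5s (-0.66) to Atp5d (0.36).

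**Figure D4:**
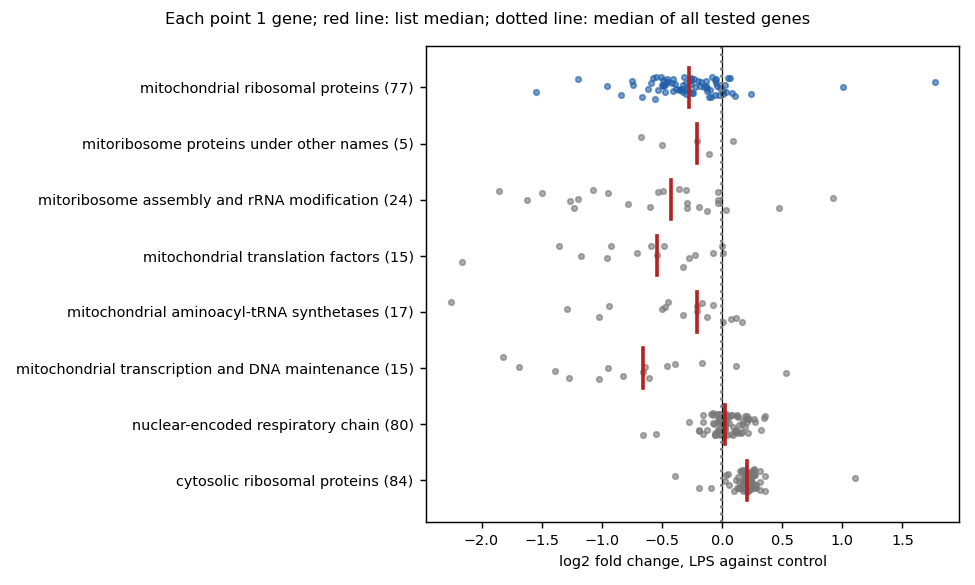
Log2 fold change (LPS against control) of each tested gene in the members and in 7 related lists, with the number of tested genes in brackets and the list median as a red line. The members' median (-0.27) lay between those of the translation factors (-0.54) and of the cytosolic ribosomal proteins (0.21), and the dotted line marks the median of all tested genes (-0.01).

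Among 10 tested nuclear regulators known from mitochondrial biogenesis, 3 rose and 4 fell. Myc, a driver of ribosome and mitochondrial gene expression, went from 4.52 to 54.3 CPM (log2 fold change 3.58). The subunits of GABP also rose, Gabpb1 from 14.5 to 39.9 CPM (1.46) and Gabpa from 53.9 to 77.1 CPM (0.52). Nrf1 went from 30.1 to 25.1 CPM (-0.27), Ppargc1b from 3.41 to 2.17 CPM (-0.66), and Yy1 from 103 to 94.9 CPM (-0.12). Whether these levels bear on those of the members was not tested.

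Motifs were searched in the promoter windows of the members, of which 69 had at least 1 entry in the RefSeq table (75 windows of 300 bases). The NRF1 core TGCGCA stood in 29.3% of the members' windows, in 13.7% of the windows of tested protein-coding genes and in 7.76% of all 32851 windows. The ETS motif CCGGAAG stood in 34.7%, 17.7% and 8.86%, and the YY1 motif AAGATGG in 17.3%, 7.19% and 6.34%. In the 250 bases before the start alone, the shares in members and in tested protein-coding genes were 25.3% and 11.4% for the NRF1 core, 24.0% and 13.7% for the ETS motif, and 8.0% and 4.36% for the YY1 motif. The other motifs were near the share in tested protein-coding genes or below it: E-box 9.33% and 9.78%, SP1 52.0% and 61.7%, NF-Y 40.0% and 37.7%, AP-1 4.0% and 5.24%, kappaB 6.67% and 10.4%.

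Within the family, the NRF1 core was in 18 of 49 windows of members that fell (36.7%) and in 4 of 23 windows of members not called (17.4%). The ETS motif had the opposite order, with 26.5% and 47.8%. Motifs were searched independently, so matches to different motifs can share bases, some members have several windows, and no test was made.

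Neighbouring genes were examined after the values of the members had been seen. Both members that rose past the criteria lie next to a gene that rose more. Mrpl39 ends 2330 bp from the end of Mir155hg, the host transcript of the microRNA miR-155, which lies on the opposite strand and went from 1, 2 and 7 counts in control to 5572, 5180 and 5766 with LPS (log2 fold change 11.10, adjusted p = 1.76e-22). Mrpl52 is followed on the same strand, after 1855 bp, by Mmp14, a membrane-bound metalloproteinase, which went from 4.26, 4.67 and 3.92 to 25.5, 26.1 and 23.7 CPM (log2 fold change 2.55, adjusted p = 1.93e-15). For all members, only the nearest tested gene on each side was considered, without genes whose span overlaps the member. Of the 7 members with such a neighbour within 10000 bp that rose past both criteria, Mrpl39 and Mrpl52 rose, 4 fell and 1 was not called. The neighbours lie on different sides and strands of the members, and the same count was not made over all genes. Those that fell were Mrps35 (-0.66, 8518 bp from Rep15 at 1.62), Mrps27 (-0.45, 5883 bp from Map1b at 1.85), Mrps11 (-0.33, 4752 bp from Gm45059 at 1.37) and Mrps18b (-0.26, beside Ppp1r10 at 1.38). Mrpl4, not called at 0.07, lies 7145 bp from Icam1, an adhesion molecule with a log2 fold change of 4.26. The part of reads or transcription shared between these neighbours was not tested.

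Many members share a start region with a gene on the other strand. For 23 members the start of another protein-coding gene lay head-to-head within 1000 bp, and in 22 pairs both genes were tested. Of these 22 partners, 15 fell and 3 rose, 5 of them falling past a log2 fold change of -1. Of the 12146 tested protein-coding genes, 35.8% fell and 34.6% rose, and 899 fell past both criteria. Whether the partners differ from those genes was not tested. The member and its partner were both below 0 in 13 pairs, and their values had a Pearson r of 0.02 and a Spearman rho of 0.09 over the 22 pairs, which share all libraries. Mrpl49 (-1.55) is paired with Fau (0.27), a ribosomal protein precursor of the cytosol, over 59 bp, and Mrps18b (-0.26) with Ppp1r10 (1.38), a phosphatase subunit. Mrpl50 (-0.84) and its partner Zfp189 (-2.18), a zinc finger gene, both fell.

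**Figure D5:**
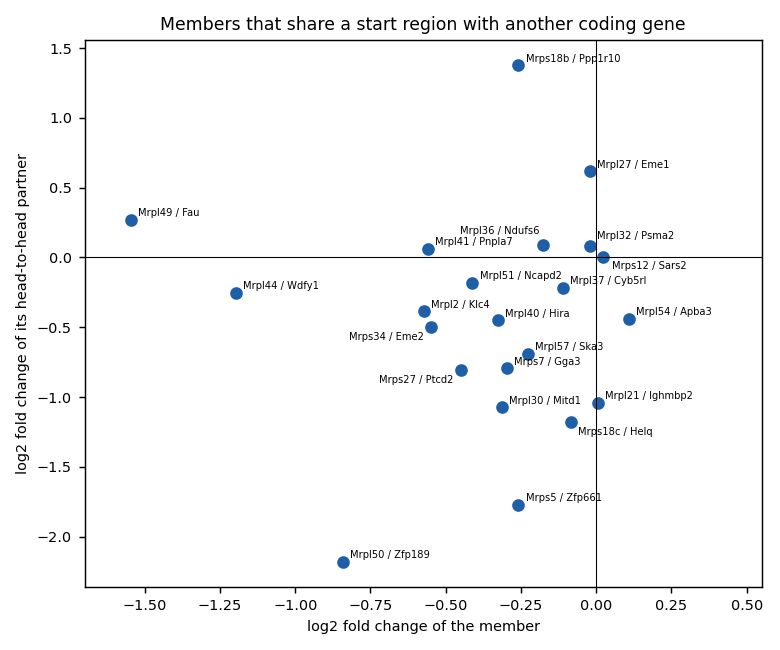
Log2 fold change (LPS against control) of 22 members (horizontal axis) against that of the protein-coding gene that starts head-to-head with each (vertical axis), each point labelled member / partner. The points show no common trend (Pearson r 0.02), with Mrpl49 low beside an increased Fau and Mrpl50 low beside a low Zfp189.

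The libraries behaved as labelled for treatment and cell type. Tnf, Il1b and Cxcl2 had log2 fold changes of 6.83, 11.77 and 9.97. All 9 macrophage markers were detected, with a summed level of 29865 to 31144 CPM in control and 32617 to 32948 CPM with LPS, and 6 of them rose and 2 fell. Of 16 markers of other cell types, 10 had a mean under 1 CPM in both groups. Of the 8 that passed the filter, 4 rose and none fell (median 0.45), and Siglech was the highest (1.07, past both criteria). The summed level of the markers of other cell types was 35.2 to 36.8 CPM in control and 49.6 to 51.7 CPM with LPS, of which Cd4 held 21.2 and 30.4 CPM. Their part in the members' values was not tested.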

How the data were processed

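The 6 libraries of total RNA (TruSeq stranded kit) were grouped by the labels into control (PBS) and LPS, 3 each. Per the labels and the paper's methods, the authors aligned reads to GRCm38 with HISAT2 2.1.0, used FastQC 0.11.9 and SAMtools 1.17, and assigned reads to genes by featureCounts 2.0.0, and they deposited raw counts without normalization. The annotation release, the strand setting and the handling of reads with several positions are not given in the sources used here. Of the 55335 rows, 55154 matched GENCODE M21 without the version and 54587 with it. Coordinates are 1-based.

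From the counts, filterByExpr and TMM scaling of edgeR 4.0.16 in R 4.3.3 kept 15687 genes, and LPS was compared with control by the quasi-likelihood test with no covariate. The study describes pairwise comparisons by DESeq2, which was run as an alternative. Standard errors were derived from the F statistic. Both criteria means an adjusted p under 0.05 with a log2 fold change beyond 1 in either direction. Library totals were 37787611 to 41516330, and the common biological coefficient of variation was 0.0426. Floors (3 counts) cover counting error only. The functions were tested on simulated counts.

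Replicate numbers repeat as batch numbers in the labels of both groups, so the pairing comes from the labels, which do not say what a batch is. Deviations from the group means correlated at -0.0139, 0.0822 and 0.0387 between same-numbered libraries over all tested genes.

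Named are the 10 lowest and 10 highest tested members, those past both criteria, the 3 highest and lowest by TPM, members failing the filter, members overlapping another gene (given mostly as counts), ribosome proteins under other names, and the ends of each related list. Members, lists and rule were chosen with earlier results of these data known, and further members and list genes were named after their values were seen. Alternatives were other scalings (DESeq2 size factors, library size, upper quartile), no filter beyond 1 count, at least 10 counts in every library, DESeq2 1.42.0, limma 3.58.1 voom, the replicate block, leaving out the 10 highest genes or each library, longest-transcript length for TPM, and motif windows of the 250 bases before the start.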

Additional observations from a re-analysis of the deposited data

How the results depend on the processing

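The number of members that fell was 51 as reported and 47 to 74 under the alternatives. No member called in the reported fit passed the test in the opposite direction under an alternative. The value of Mrps28 turned negative without passing it with library size alone. With that scaling, the 23 members not called in the reported fit passed the test as falls. Among them were Mrpl54, Mrpl20, Mrpl4, Mrpl48, Mrpl14, Mrps12 and Mrpl21, whose reported values were positive. With a replicate block (the paired fit), 53 fell and 3 rose, the median was -0.27 and no call was lost. The median was -0.25 with DESeq2 size factors and -0.25 with DESeq2's test, -0.68 with library size alone, -0.42 with upper quartile scaling, -0.30 with no filter, -0.29 with 10 counts in every library, and from -0.30 to -0.27 on leaving out 1 library at a time. Leaving out a library gave 48 to 51 falls, 2 to 3 rises and 3 to 4 members past both criteria. Members past both criteria numbered 9 with library size alone, and the median level per length was 23.9 TPM with the longest transcript against 20.8 TPM.

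Directions that turned were those of small values. With library size alone, log2 fold changes were -0.40 for Mrpl21, -0.38 for Mrps12, -0.37 for Mrpl14, -0.35 for Mrpl48, -0.34 for Mrpl4, -0.32 for Mrpl20, -0.30 for Mrpl54, -0.16 for Mrps28 and -0.31 for Dap3, and medians were -0.20 for cytosolic ribosomal proteins and -0.38 for the respiratory chain. With upper quartile scaling they were -0.14 for Mrpl21, -0.12 for Mrps12, -0.11 for Mrpl14, -0.090 for Mrpl48, -0.074 for Mrpl4, -0.059 for Mrpl20, -0.034 for Mrpl54, -0.053 for Dap3 and -0.12 for the respiratory chain. With no filter they were -0.019 for Mrpl21, -0.0032 for Mrps12 and -0.0028 for the respiratory chain. Mrpl21 was -0.011 with 10 counts in every library and -0.0014 without the 10 highest genes. Leaving out each library gave -0.077 to 0.075 for Mrpl21, -0.025 to 0.091 for Mrps12 and -0.039 to 0.075 for Mrpl14. These shifts follow from the common change of scale with library size alone and upper quartile scaling. For the others the cause was not tested. The lowest count of a tested member in any library was 180.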
